A study of Homo sapiens with 8 samples.

Results

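The type V collagen genes COL5A1, COL5A2 and COL5A3 encode the α1, α2 and α3 chains of a fibrillar collagen that is built into the same fibrils as type I collagen and regulates their assembly and diameter. The α3 chain is found in fewer tissues than the other chains. Regions tested for LARP6 binding were taken as members if their midpoint lay within the GRCh38 bounds of one of the 3 genes, on the strand of the gene. This gave 249 and 262 tested clusters in TGFβ1 replicates 1 and 2 and 202 and 219 in control replicates 1 and 2. The authors' lists of reproducible peaks added 12 regions for TGFβ1 and 7 for control, which makes 951 of 178461 regions in all.

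LARP6 belongs to the La-related proteins and is best known as the factor that grips a stem-loop near the start codon of type I and type III collagen mRNAs. Hepatic stellate cells are the main source of fibrillar collagen in the scarring liver, and TGFβ1 is the cytokine best known for activating them. In eCLIP, ultraviolet light links proteins to the RNA they touch, and fragments pulled down with the protein are counted against an input cut from the same size range of the gel. The TGFβ1 group received TGFβ1 at 5 ng/ml. The control group carries the label untreated as well as DMSO. Both were wild-type human hepatic stellate cells per the labels, grown with 10% serum and crosslinked at 254 nm and 400 mJ/cm2, and each had 2 LARP6 and 2 input libraries. The sources used here do not state how long TGFβ1 was given, nor whether the replicates were grown as separate cultures. The p-values thus measure only the spread between these libraries, which may be technical.

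COL5A1 lies on chromosome 9 (134641803 to 134844843, plus strand), COL5A2 on chromosome 2 (189031898 to 189441111, minus strand) and COL5A3 on chromosome 19 (9959561 to 10010504, minus strand). All tested clusters within the bounds of each gene lay on a single strand, 627 in COL5A1, 297 in COL5A2 and 8 in COL5A3 over the 4 libraries. The strand of COL5A2 was itself read from these clusters. No other protein-coding gene overlaps the 3 genes in the reference.

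Each cluster carries the authors' log2 fold over input and the authors' −log10 p-value, and it was called enriched at 3 or more in both. The lists hold no read counts, so the depth is unknown. Libraries differed in the share of all clusters that were enriched, with 2.69% and 3.64% in TGFβ1 and 1.21% and 2.09% in control libraries. Of 10 stellate and myofibroblast markers, 8 had tested clusters in every library, while DES and LRAT had none. No marker of hepatocytes or endothelial cells had a tested cluster, and of the 4 cholangiocyte and 4 macrophage markers only KRT7, SOX9 and CD68 had any. Fold over input is meant to set binding against RNA abundance, but a gene must yield reads to be tested at all, and in such bulk lysates fewer cells of a type and less RNA per cell cannot be told apart.

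COL5A1 carried the strongest LARP6 sites of the type V genes, and they were present in all 4 libraries. It had 172 and 165 tested clusters in TGFβ1 libraries and 139 and 151 in control libraries. Of these, 7 and 11 were enriched in TGFβ1 and 7 and 8 in control. As shares of tested clusters these were 4.07% (95% Wilson interval 1.99 to 8.16) and 6.67% (3.76 to 11.5) in TGFβ1, and 5.04% (2.46 to 10.0) and 5.30% (2.71 to 10.1) in control. Each share lay above that of all clusters in its library, and in TGFβ1 replicate 1 the interval included the background. Neighbouring clusters of a gene are not independent, and the intervals cover counting error only. Of all protein-coding genes with a tested cluster, 6.60% and 11.6% in TGFβ1 and 3.01% and 5.11% in control libraries had at least 1 that was enriched. At these limits the counts overlapped between conditions (mean 9 in TGFβ1 and 7.5 in control, exact permutation test, two-sided, p = 1). With looser limits they did not overlap. A fold limit of 2 gave 12 and 19 enriched clusters in TGFβ1 and 9 and 10 in control libraries, and a −log10 p limit of 2 gave 9 and 14 in TGFβ1 and 7 and 8 in control (exact permutation test, two-sided, p = 0.333 for each, the smallest possible). Shares of all clusters at these looser limits were not computed, so these counts lack a background. The mean highest fold was greater in TGFβ1 for 79.0% of 4229 genes tested in all 4 libraries. Their median difference was 0.62, and that of COL5A1 was 0.20.

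Most enriched COL5A1 clusters fell at 2 places. Enriched clusters and reproducible peaks were merged into sites where they lay at most 20 nt apart, and the 8 resulting sites are numbered from the 5′ end. Sites 1 and 4 were enriched in all 4 libraries and held 6 of 7 and 7 of 11 enriched clusters in TGFβ1 libraries and 7 of 7 and 7 of 8 in control libraries. They also held all 7 reproducible peaks of the TGFβ1 list and all 7 of the control list. The other 6 sites were each enriched in a single library.

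Site 1 lies within the first 500 nt of COL5A1 (chromosome 9, 134642200 to 134642296, 397 nt from the annotated 5′ end). Its highest log2 fold over input was 6.54 and 7.25 in TGFβ1 replicates 1 and 2 and 6.51 and 7.00 in control replicates 1 and 2. In both conditions replicate 2 was the higher library, and the conditions overlapped. The means were 6.90 ± 0.50 in TGFβ1 and 6.76 ± 0.34 in control (SD, n = 2), a difference of 0.14 that was smaller than the spread between replicates (exact permutation test, two-sided, p = 0.667).

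Site 4 lies far downstream in genomic distance (134690912 to 134690939, 49109 nt from the 5′ end). It reached 6.63 and 7.44 in TGFβ1 libraries and 6.49 and 7.15 in control libraries. The order of the 4 libraries was the same as at site 1, and whether both sites are independent of each other was not tested. The means were 7.04 ± 0.57 in TGFβ1 and 6.82 ± 0.46 in control (SD, n = 2), which differed by less than the replicates did (exact permutation test, two-sided, p = 0.667).

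**Figure D1:**
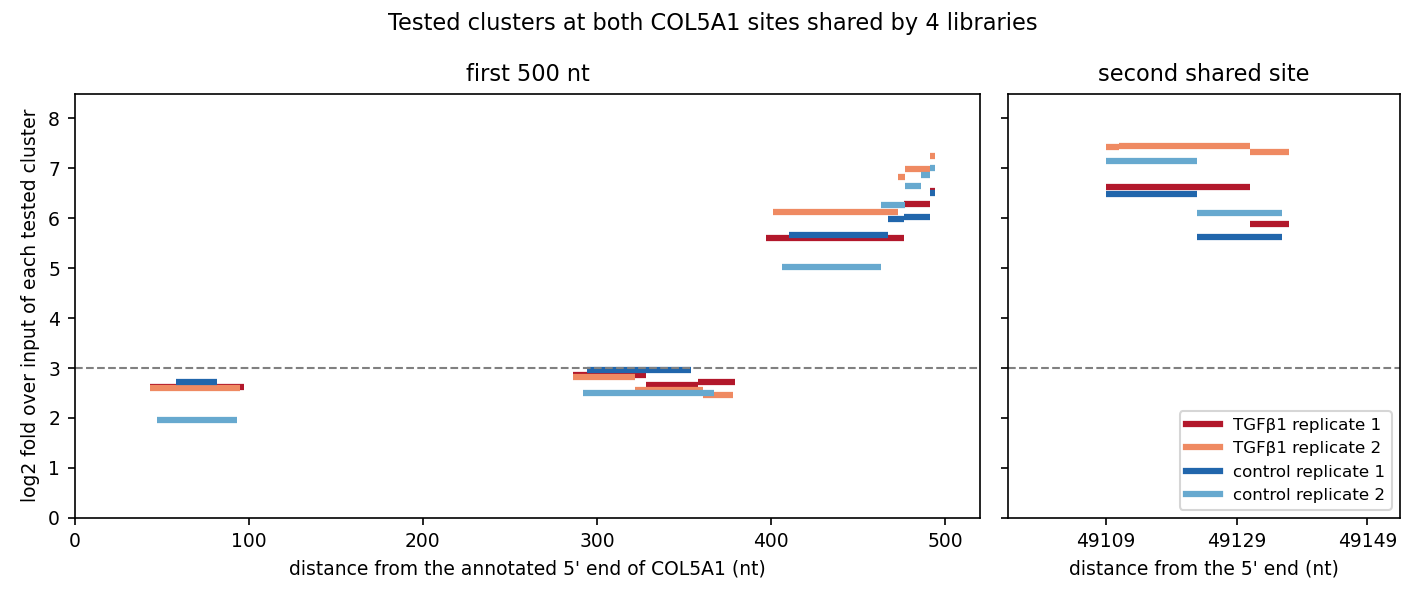
Log2 fold over input of each tested cluster (bars span the cluster) against distance from the annotated 5′ end of COL5A1 in nt, for the first 500 nt (left) and the second site shared by all libraries (right), with the limit of 3 dashed. In each library the fold climbs towards the 3′ edge of site 1, where it is 6.51 to 7.25, and clusters nearer the 5′ end stay below 3.

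Both sites had edges at the same base in every library. The 3′ edge of site 1 was at 134642296 in 4 of 4 libraries, and the 5′ edge of site 4 was at 134690912 in 4 of 4. The outer edges were less sharp, from 134642200 to 134642213 at the 5′ side of site 1 and from 134690938 to 134690939 at the 3′ side of site 4. Over all tested clusters, 0.656% to 1.15% of low-coordinate edges and 0.486% to 0.851% of high-coordinate edges, depending on the library, recurred at the same base in all 4. For COL5A1 as a whole these shares were 1.74% to 2.16% and 2.33% to 2.88%. In each library both were lower than those of COL5A2, which are described below.

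The fold also rose stepwise within site 1. In TGFβ1 replicate 2 it was 6.12, 6.82, 6.98 and 7.25 in consecutive clusters, and in control replicate 1 it was 5.67, 5.98, 6.03 and 6.51. The cluster at the 3′ edge of site 1 and the one at the 5′ edge of site 4 had nearly equal folds, with site 4 minus site 1 at 0.09 and 0.19 in TGFβ1 libraries and -0.02 and 0.15 in control libraries. From there the fold fell towards the 3′ edge of site 4, to 5.88 and 7.33 in TGFβ1 and 5.63 and 6.10 in control libraries. Between both edges lie 48615 nt of the gene, with 21 and 7 tested clusters in TGFβ1 and 21 and 22 in control libraries, of which 0 and 2 were enriched in TGFβ1 and 0 and 0 in control libraries. Exons, introns, untranslated regions and the start codon were not annotated in the tables used, so whether these edges are exon ends was not tested.

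The rest of the first 500 nt of COL5A1 had folds below the limit. Upstream of site 1 the clusters had log2 folds of 2.62 to 2.87 and 2.46 to 2.82 in TGFβ1 replicates 1 and 2 and of 2.72 to 2.96 and 1.95 to 2.50 in control replicates 1 and 2. None was enriched, although every one passed the p limit, with −log10 p-values from 8.39 up to the ceiling of 400. The window thus held 3 of 7 and 4 of 8 clusters enriched in TGFβ1, and 4 of 6 and 5 of 7 in control. The outermost of these clusters begins within the stretch for which reference sequence was at hand. It is shown because it is the 5′-most LARP6-tested RNA of the gene, as 30 bases of RefSeq sequence on GRCh38.p14 (chr9:134641825-134641854, plus strand), in which capitals mark the 9 bases inside the outermost cluster of the TGFβ1 libraries.
COL5A1: gctggcgcaggacctcactcgAGCGGAGCG

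Towards the 3′ end of COL5A1 the folds were lower. 3′ of site 4 the median log2 fold was 0.73 and 0.63 in TGFβ1 libraries and 0.60 and 0.61 in control libraries, over 141, 147, 109 and 120 clusters in that order. Within the last 5000 nt of the gene it was -0.44 and -0.57 in TGFβ1 and -0.33 and -0.24 in control libraries. This window lies inside the bounds of the lncRNA gene LOC101448202, whose strand was not at hand, so the transcript behind its clusters is uncertain. There 10 of 10 and 11 of 14 clusters in TGFβ1 and 6 of 7 and 4 of 8 in control libraries had a log2 fold below 0, that is, less signal than input. In the first 500 nt, by comparison, the median was 2.87 and 4.47 in TGFβ1 and 5.82 and 6.26 in control libraries, so the first window exceeded the last in each library. These medians depend on how the stretch was cut into clusters. Upstream of site 1 it held 4 and 4 clusters in TGFβ1 and 2 and 2 in control libraries. They are therefore not read as a difference between conditions.

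The 6 sites found in a single library were weaker. Site 5 (134699969 to 134700064) was enriched in control replicate 2 alone, at 4.02, with 1.94 and 2.60 in TGFβ1 libraries and 1.70 in control replicate 1. Site 6 (134739582 to 134739716) was enriched in TGFβ1 replicate 1 alone, at 3.14, with 2.63 in TGFβ1 replicate 2 and 1.96 and 2.26 in control libraries. Sites 2, 3, 7 and 8 were enriched in TGFβ1 replicate 2 alone, the library with the highest background, at 3.05, 3.97, 3.81 and 3.18. Of these, only site 3 had a tested cluster in every library, at 2.43 in TGFβ1 replicate 1 and 1.79 and 2.43 in control libraries. Site 2 overlaps the bounds of the minus-strand lncRNA gene COL5A1-AS1 and site 8 those of LOC101448202, whose strand is not in the tables used, so the transcript behind site 8 is uncertain. Across the 8 sites of COL5A1 and COL5A2 that had a value in every library, no adjusted p was below 0.667 (exact permutation tests with Benjamini-Hochberg adjustment). With 2 libraries against 2, this test allows no unadjusted two-sided p below 0.333, so it could not show a difference at any site. Sites 3, 5 and 6 were each defined by a call in a single library, which favours the condition of that library.

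**Figure D2:**
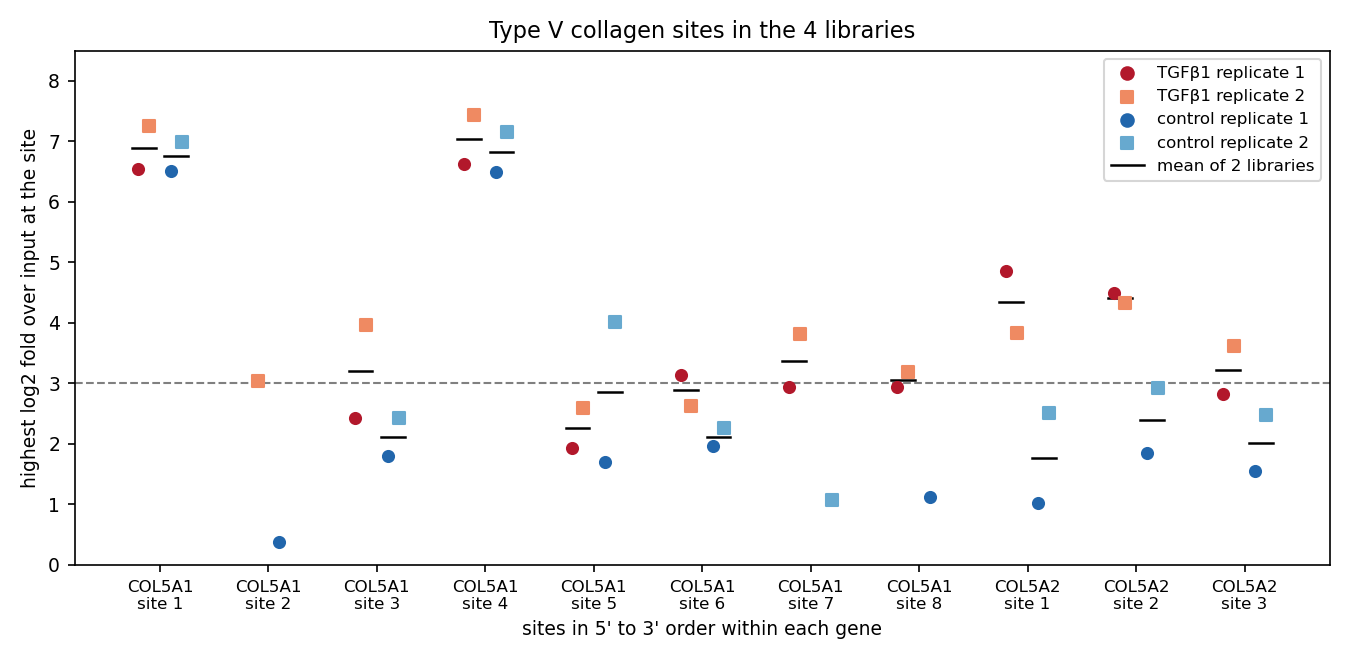
Highest log2 fold over input at each type V collagen site in every library (circles are replicate 1, squares replicate 2, black lines the mean of 2 libraries where both had a cluster), with the limit of 3 dashed. COL5A1 sites 1 and 4 lie at 6.49 to 7.44 in all 4 libraries. At the 3 COL5A2 sites, which were defined by TGFβ1 calls alone, both TGFβ1 libraries lie above both control libraries.

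COL5A2, the partner chain, had enriched clusters in the TGFβ1 libraries and none in the control libraries. It had 77 and 91 tested clusters in TGFβ1, of which 3 and 5 were enriched (3.90% and 5.49%, 95% Wilson intervals 1.33 to 10.8 and 2.37 to 12.2). In control libraries 0 of 62 and 0 of 67 were, which allows shares of up to 5.83% and 5.42% by the same interval. All 4 intervals include the share of all clusters in the same library, 2.69% and 3.64% in TGFβ1 and 1.21% and 2.09% in control. More enriched clusters in both TGFβ1 than in both control libraries was the case for 3.38% of 4229 protein-coding genes tested in all 4. With 2 libraries against 2 the exact permutation test gave p = 0.333, the smallest two-sided value possible. The TGFβ1 list of reproducible peaks held 5 peaks in COL5A2 and the control list none, while 7.11% of protein-coding genes tested in both TGFβ1 libraries and 3.93% of those tested in both control libraries had a listed peak.

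The COL5A2 peaks made 3 sites within 1488 nt (chromosome 2, 189078518 to 189080005, minus strand). Site 1 (189079978 to 189080005) had log2 folds of 4.87 and 3.83 in TGFβ1 libraries and 1.02 and 2.51 in control libraries. Site 2 (189079062 to 189079107) had 4.50 and 4.34 in TGFβ1 and 1.85 and 2.92 in control libraries. Site 3 (189078518 to 189078570) had 2.83 and 3.62 in TGFβ1 and 1.55 and 2.47 in control libraries. The 3 sites were defined by TGFβ1 clusters and TGFβ1 list peaks alone, which favours higher TGFβ1 values at them. By the highest fold the conditions did not overlap at any of the 3 sites, and control replicate 2 was always above control replicate 1. Sites 1 and 2 each had an edge at the same base in all 4 libraries, at 189079978 and 189079062, which on this strand is the 3′ edge. Over all COL5A2 clusters, 5 low-coordinate and 4 high-coordinate edges recurred at the same base in all 4 libraries. The low-coordinate share was 6.49% and 5.49% in TGFβ1 and 8.06% and 7.46% in control libraries. On both sides the share was above that of COL5A1 and of all clusters in each library, and no test was made.

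Differences TGFβ1 minus control were 2.59, 2.03 and 1.22 at the 3 sites in this order, on the log2 scale (exact permutation tests, two-sided, p = 0.333 each, 0.667 after Benjamini-Hochberg adjustment). Since the sites were chosen through TGFβ1 calls, their direction was favoured in advance and these tests give no independent support for a difference. At site 3 the conditions overlapped when the length-weighted mean fold was taken in place of the highest (difference 0.99, exact permutation test, p = 0.667), and without control replicate 1 the difference in highest fold was 0.75. Control replicate 2 was close to being called at site 2. Its cluster there had a −log10 p-value of 4.82, past the limit for p, with its log2 fold of 2.92 just under the limit for fold. At site 3, TGFβ1 replicate 1 itself was not enriched with 2.83, although the site is in the authors' TGFβ1 list. The places were therefore tested in all 4 libraries and had positive folds in all of them, and the number called depends on where the limit for fold lies. With the limit at 2, 5 and 8 COL5A2 clusters were enriched in TGFβ1 (mean 6.5) and 0 and 3 in control libraries (mean 1.5). The share of all clusters enriched at that limit was not computed.

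The difference in COL5A2 stood beside a general shift. The highest log2 fold of the gene was 4.87 and 4.34 in TGFβ1 and 1.85 and 2.92 in control libraries, with means of 4.60 ± 0.37 in TGFβ1 and 2.39 ± 0.76 in control (SD, n = 2), a difference of 2.21. Over 4229 protein-coding genes tested in all 4 libraries the median of this difference was 0.62, and 42.5% had a higher value in both TGFβ1 than in both control libraries. Relative to that median COL5A2 was 1.60 higher, and 125 genes (2.96%) had a difference at least as large. For COL5A1 the same difference was 0.20, which was 0.41 below the median. The number of tested clusters was also higher in both TGFβ1 libraries, for COL5A2, for COL5A1 and for 17.0% of the 4229 genes. Of the 4 cholangiocyte markers, KRT19 and EPCAM had no tested cluster. KRT7 had 13 and 17 in TGFβ1 and 1 and 2 in control libraries. SOX9 had 2 and 1 in TGFβ1 and 1 and 1 in control libraries, so the higher cluster count rests on KRT7. None of these clusters was enriched. Both genes had higher top folds in both TGFβ1 libraries, and the median highest fold of KRT7 and SOX9 was 2.31 in TGFβ1 and 0.72 in control. CD68, the only macrophage marker with clusters, had 2 and 4 in TGFβ1 and 2 and 4 in control libraries. The part of these shifts, of library quality and of RNA abundance in the COL5A2 difference was not tested.

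Unlike COL5A1, COL5A2 showed no enrichment at its 5′ end. The annotated 5′ bound of the gene lies 261351 nt upstream of its outermost tested cluster, so a window at that bound was empty in every library. In the 500 nt from the outermost cluster (189179760), 3 and 3 clusters in TGFβ1 libraries had highest log2 folds of 2.20 and 0.72, and 2 and 1 clusters in control libraries had 1.02 and 1.68. None was enriched. The 3 sites began 99755 nt further downstream. Clusters 5′ of the sites had medians of 1.09 and 0.50 in TGFβ1 and -0.21 and 0.85 in control libraries, and those 3′ of them had medians of 0.62 and 0.82 in TGFβ1 and 0.38 and 0.48 in control libraries. No cluster outside the 1488 nt reached the limit in any library, and the highest was 2.71.

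**Figure D3:**
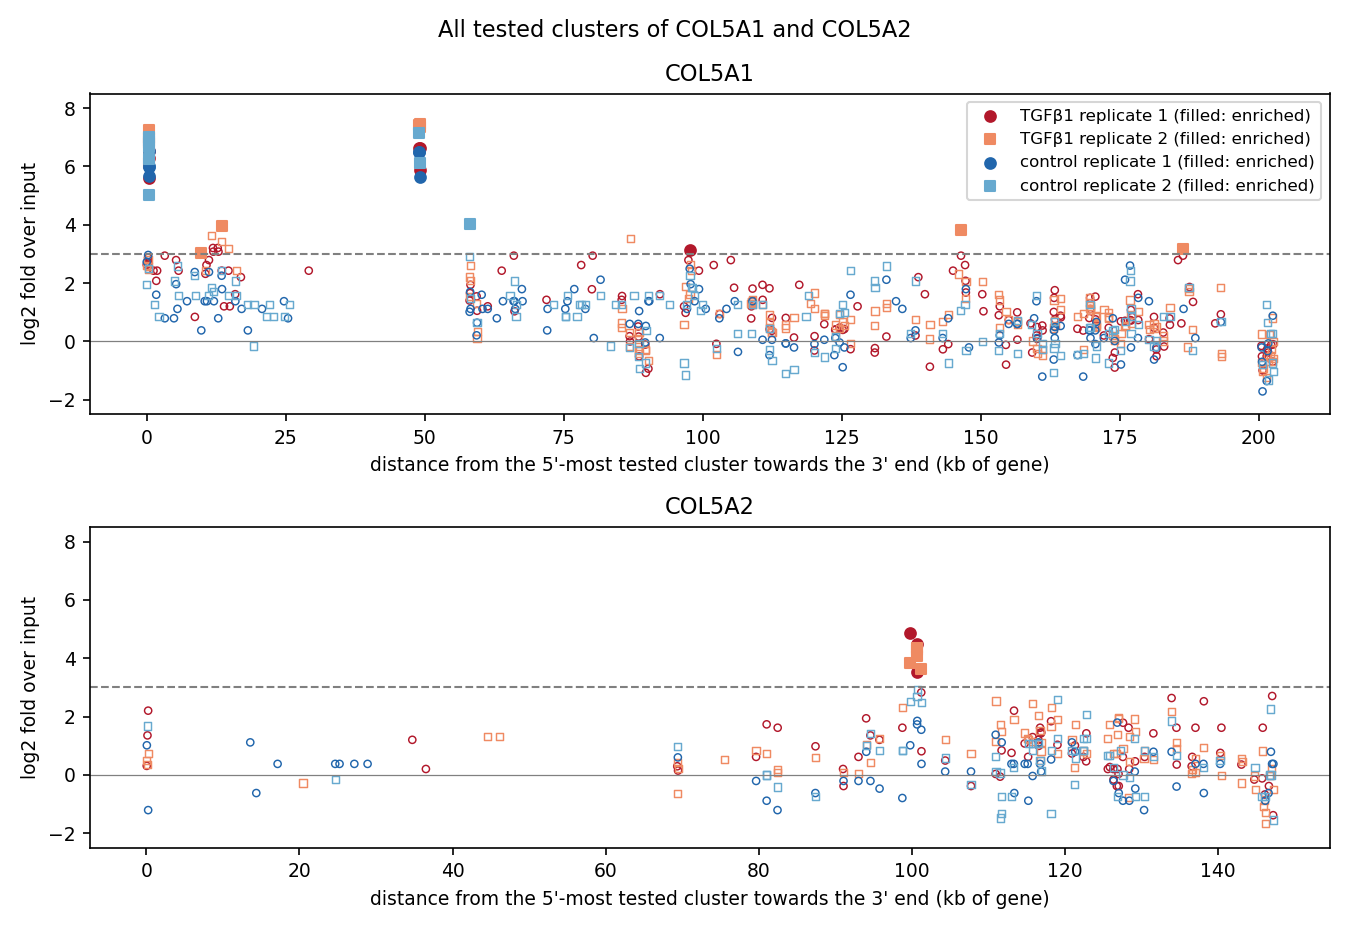
Log2 fold over input of every tested cluster of COL5A1 (top) and COL5A2 (bottom) against distance in kb of gene from the 5′-most tested cluster, with enriched clusters filled and the limit of 3 dashed. COL5A1 has its highest values at 2 places shared by all libraries, and COL5A2 has enriched clusters in the TGFβ1 libraries alone, within 1488 nt.

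COL5A3 gave almost no signal. It had 0 and 6 tested clusters in TGFβ1 libraries and 1 and 1 in control libraries, none of them enriched. The cluster seen in most libraries, near 9977608, had log2 folds of 2.05 in TGFβ1 replicate 2 and 1.38 and 2.07 in control replicates 1 and 2, with −log10 p-values of 0.64, 0.17 and 0.56. The highest of the 6 clusters in TGFβ1 replicate 2 had 2.31. With so few clusters, binding of this mRNA was not detectable, which does not show that it is absent.

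Among fibrillar collagens the type V chains ranked below types I and III. COL5A1 had the 20th and 24th highest peak of 5563 and 7553 genes in TGFβ1 libraries and the 17th and 12th of 6753 and 6375 in control libraries. COL5A2 ranked 101 and 399 in TGFβ1 and 1111 and 533 in control libraries. The highest COL5A1 cluster was below that of COL1A2 by a mean of 0.85 ± 0.21 on the log2 scale (SD, n = 4 libraries), and lower in 4 of 4. It was below COL1A1 in 4 of 4 libraries and below COL3A1 in 4 of 4, where the mean of COL5A1 minus COL3A1 was -2.33 ± 0.43. It was above COL5A2 in 4 of 4 libraries, by 1.77 and 3.10 in TGFβ1 and 4.66 and 4.23 in control libraries. The mean of these, 3.44 ± 1.29, spans both conditions, so its SD holds their difference too. None of these comparisons could pass the threshold, since 4 libraries allow no two-sided p below 0.125 (exact sign-flip test, p = 0.125 for each, also after Benjamini-Hochberg adjustment over 5 pairs).

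A smaller share of the clusters was enriched in COL5A1 than in COL3A1 or COL1A2. It was 4.07% and 6.67% in TGFβ1 and 5.04% and 5.30% in control libraries for COL5A1, with 16.5% and 17.6% in TGFβ1 and 16.9% and 23.7% in control libraries for COL3A1. For COL1A2 it was 27.9% and 32.1% in TGFβ1 and 14.4% and 33.3% in control libraries. COL5A1 was the lowest of the 3 genes in each of the 4 libraries, and no test was made of these shares.

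**Figure D4:**
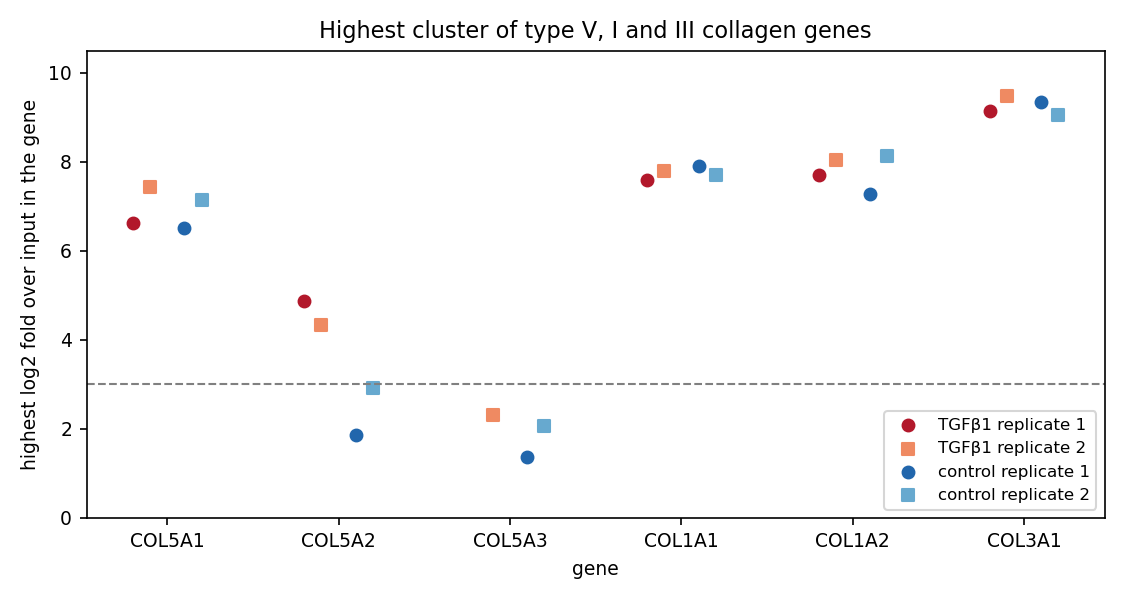
Highest log2 fold over input of any cluster in the type V, I and III collagen genes, per library (circles are replicate 1, squares replicate 2), with the limit of 3 dashed. COL5A1 lies between 6.51 and 7.44, and COL5A3 has no point for TGFβ1 replicate 1, where it had no tested cluster.

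Of the 11 fibrillar collagen genes, 6 had tested clusters in both TGFβ1 libraries and 6 in both control libraries. Both sets held COL1A1, COL1A2, COL3A1, COL5A1 and COL5A2, with COL11A1 as the other gene in TGFβ1 and COL5A3 in control. All but COL11A1 were in the TGFβ1 list, which makes 5, and all but COL5A2 and COL5A3 were in the control list, which makes 4. These were 83.3% of the tested genes in TGFβ1 and 66.7% in control, where 7.11% and 3.93% of all tested protein-coding genes were listed. The median highest fold of the tested genes was 7.36 in TGFβ1 and 7.27 in control, where all protein-coding genes had 1.83 in TGFβ1 and 1.19 in control. COL11A1, which can form mixed fibrils with type V chains, had 9 and 20 tested clusters in TGFβ1 libraries and 0 and 0 in control libraries, with a highest fold of 2.72. None of them was enriched. Of 4229 protein-coding genes tested in all 4 libraries, 17.0% had more tested clusters in both TGFβ1 than in both control libraries. The share of genes tested in TGFβ1 libraries alone was not computed.

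Of 20 genes whose products process or bind the fibril, 16 were tested in both TGFβ1 libraries and 16 in both control libraries. The TGFβ1 list held 4 of them (25%, where 7.11% of all tested genes were listed) and the control list 1 (6.25%, where 3.93% were), and their median highest fold was 1.97 in TGFβ1 and 1.77 in control. BMP1, which cleaves procollagen ends, had 0 and 3 enriched clusters in TGFβ1 libraries and 0 and 1 in control libraries. FURIN, a proprotein convertase known to cleave the type V propeptide, had 2 and 4 in TGFβ1 and 0 and 0 in control libraries. Its highest folds were 4.20 and 4.77 in TGFβ1 and 1.60 and 1.85 in control. More enriched clusters in both TGFβ1 than in both control libraries was the case for 3.38% of 4229 protein-coding genes tested in all 4. TNXB, the gene of tenascin X, was in both lists, with 1 and 1 enriched clusters in TGFβ1 and 1 and 2 in control libraries. THBS1, the gene of thrombospondin 1, had 1 and 3 in TGFβ1 and 2 and 1 in control libraries. DCN and LUM, whose proteoglycans coat collagen fibrils, had no enriched cluster in any library.

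Of 17 intracellular enzymes and chaperones of collagen, 15 were tested in both TGFβ1 libraries and 15 in both control libraries. P4HA2 and PLOD3 were in the TGFβ1 list (13.3% of tested genes, with 7.11% of all genes) and PLOD3 in the control list (6.67%, with 3.93% of all genes), with a median highest fold of 2.47 in TGFβ1 and 1.32 in control. P4HA2, a prolyl hydroxylase subunit, had 0 and 2 enriched clusters in TGFβ1 and 0 and 1 in control libraries. PLOD3, a lysyl hydroxylase, had 0 and 1 in TGFβ1 and 1 and 0 in control libraries. SERPINH1, the collagen chaperone, had none, with a highest fold of 1.62.

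By the highest log2 fold in the 4 libraries, the genes most like COL5A1 among 4229 were ALDH2, IGFBP4 and CAVIN1, with mean absolute differences of 0.33, 0.35 and 0.37. Those most like COL5A2 were ST6GALNAC6, MICAL2 and HPS1, with 0.22, 0.26 and 0.29. Each of these last genes was in the TGFβ1 list and none was in the control list, where 7.11% and 3.93% of all tested genes were listed. They were chosen by their folds in the same libraries, so this follows largely from the choice. COL5A3 could not be compared in this way, because it had no tested cluster in TGFβ1 replicate 1. The mRNA of LARP6 itself had highest folds of 6.21 and 6.36 in TGFβ1 and 6.08 and 5.77 in control libraries, below those of COL5A1 in each library.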

How the data were processed

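The submitters' processing notes name cutadapt, UMI-tools, STAR and the build GRCh38, without versions. How clusters were called, set against input and joined across replicates is not given in the sources used here. Deposited peak files came without a header. The authors' log2 values were taken, from their range, to be folds over the size-matched input. The authors' −log10 values were taken to be p-values of that comparison, with a ceiling of 400. Clusters with a negative log2 fold have a −log10 p of 0. Input libraries enter through this fold. Of the 19 peaks of the 3 genes in the lists, 8 equal the mean of both replicates' folds within 0.001, and the rest do not.

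RefSeq (GRCh38.p14) gave the gene bounds and, in its promoter table, the strands, except for COL5A2, whose strand was read from its clusters. Of the 3 genes, 2 matched that promoter table. Coordinates are 1-based. The value of a site is the highest fold of any cluster that overlaps it by at least 1 nt. Clusters went to the shortest protein-coding gene that held their midpoint on the same strand. Libraries were compared by exact permutation or sign-flip tests. Alternatives were other limits, windows, overlaps and merging distances, omission of single libraries and a block on replicate number. Named genes are the 3 members, COL1A1, COL1A2, COL3A1, LARP6, members of 3 gene lists in a reproducible list, and the 3 genes nearest in highest fold to each member. COL11A1, DCN, LUM, SERPINH1 and the cell type markers DES, LRAT, KRT7, KRT19, EPCAM, SOX9 and CD68 fall outside this rule and were named after their values were seen. The genes, lists and tests were chosen with earlier results of these data known. The code was tested on simulated data. Python 3.11.15, NumPy 2.4.6, pandas 2.3.3 and matplotlib 3.10.9 were used.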

Additional observations from a re-analysis of the deposited data

How the results depend on the processing

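For the 29 results recomputed under 216 alternatives, 201 alternatives were counted as the same. Only 13 of the results had a test. For differences between conditions, the same meant an equal direction and side of the threshold, which no exact test could pass with 2 libraries per condition. For counts of listed peaks and of clusters near the 5′ end it meant equal counts or a ratio of at most 1.5. Many of the 201 were values of 0 that stayed at 0. TGFβ1 minus control in COL5A1 turned with single libraries, as its groups overlap. Without one replicate, the difference in enriched clusters ranged from -0.5 (without TGFβ1 replicate 2) to 3.5. The difference in highest fold ranged from -0.20 (without TGFβ1 replicate 2; -0.11 without control replicate 1) to 0.61. At site 1 it ranged from -0.21 to 0.49, with -0.10 without control replicate 1, at site 4 from -0.19 to 0.62, and at site 5 from -1.75 to 0.57, the last without control replicate 2. The difference in enriched COL5A1 clusters, 1.5 at the limits used, was -1 at a fold limit of 4 and 0 at a −log10 p limit of 5, but 6 at a fold limit of 2 and 4 at a −log10 p limit of 2. The cause was not tested.

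The 5 peaks of COL5A2 in the TGFβ1 list became 3 when clusters enriched in both libraries were counted by the cluster bounds of replicate 1, 4 by those of replicate 2 (chosen after seeing the data), and 2 at a log2 fold of at least 4. Within 200 nt of the 5′ end of COL5A1 there were 0 enriched clusters on average in TGFβ1 and 0 in control libraries, since site 1 lies beyond, and in 500 nt a fold limit of 2 gave 7.5 in TGFβ1 in place of 3.5 and 6 in control in place of 4.5, which turns the order of the conditions. Taking the 5′ end from the outermost cluster, chosen after seeing the data, changed no count. For COL5A2, leaving out 1 library gave differences in highest fold from 1.68 to 2.75, and at site 3 from 0.75 to 1.68.

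With the replicate number as a block, the difference in highest fold was 0.20 for COL5A1 (exact sign-flip test, p = 0.5) and 2.21 for COL5A2 (p = 0.5, exact, the smallest for 2 pairs), and no call changed. Replicate differences of both conditions correlated at 0.06 over 8673 bins of 1 kb, and the numbers were taken as names. This check covers all such bins, so it cannot exclude a batch shared by libraries of the same number. Replicate 2 was the higher library in both conditions at COL5A1 sites 1, 3, 4 and 5 and at COL5A2 site 3. At COL5A1 site 6 and COL5A2 sites 1 and 2 this held in control alone. The lists do not hold the read depth, so the part of depth and of RNA abundance in the few clusters of COL5A3 was not tested.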
